A study of Arabidopsis thaliana with 6 samples.

Results

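A set of 10 leucine-rich repeat (LRR) receptor kinase genes of subfamily XI, which includes many receptors of small signalling peptides, was followed in Arabidopsis thaliana root tips. The genes were chosen by name, with earlier results of these data known: PXL1 (AT1G08590), PXL2 (AT4G28650), AT1G17230, AT2G33170, AT3G24240, AT4G26540, AT5G25930, AT5G48940, AT5G56040 and AT5G63930. A gene was measured where the array's annotation gives it a probe set, a group of short probes read as 1 value, that names no other gene. This held for 9 of the 10 listed genes, out of 13286 genes with such a probe set in the whole table, and each of the 9 had 1 probe set. AT5G56040, listed in the gene table also as SKM2, has no value here. Both groups were root tips of 5 mm cut from 7-day-old Col-0 wild-type seedlings, grown with shaking in liquid MS medium, a mineral salt medium, at 23 °C in continuous light. The CLE25 group received synthetic CLE25 peptide at 1000 nM for 12 h, and the CLE10 group received synthetic CLE10 peptide at the same dose and for the same time, with 3 arrays in each group. Arrays of roots without peptide were not analysed here, so every value sets one peptide against the other and none is a response to a peptide. The study's design text asks which genes lie behind the different effects of these peptides.

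Receptors of this kind span the plasma membrane, with an outer LRR domain that binds a peptide and an inner kinase domain that passes the signal on, usually together with a shorter co-receptor kinase. CLE peptides, to which CLE10 and CLE25 belong, are perceived by such receptors; the best known are CLV1 and the BAM kinases for meristem size and PXY for the vascular cambium. PXL1 and PXL2 are the closest relatives of PXY, which binds the CLE peptide TDIF. The gene table gives the other measured members as locus numbers only. In the literature, AT3G24240, AT4G26540 and AT5G48940 have been described as receptors of the RGF peptides, which maintain the root meristem, and AT5G25930 as HSL3, a receptor of the stress-related CTNIP peptides.

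No difference between CLE25-treated and CLE10-treated root tips was detected for any of these receptor kinase genes. With limma and Benjamini-Hochberg adjustment, 0 of the 7 members tested passed an adjusted p of 0.05, against 0 of 13648 probe sets, a background of 0%. No member had an unadjusted limma p under 0.05 either, where 4.21% of all probe sets did. The members' log2 fold changes, CLE25 minus CLE10, lay between -0.28 and 0.31. For all probe sets tested, the 5th and 95th percentiles were -0.27 and 0.26. The median log2 fold change regardless of sign was 0.21 for the members and 0.095 for all probe sets tested. Several members also varied more within groups. The within-group SD of log2 signal exceeded that of 95.9% of all probe sets for AT2G33170, 91.0% for AT5G48940 and 87.7% for PXL1. For AT5G63930 the share was 71.5%, for AT5G25930 57.2%, for AT3G24240 35.9% and for PXL2 4.98%. Every tested member had an adjusted p of 0.9995 (limma). The 95% confidence interval lay inside a 2-fold difference in either direction for 7 of 7 members (98.7% of all probe sets) and inside a 1.5-fold difference for 5 of 7 (81.5% of all). Whether the arrays of one peptide stem from separate cultures is not stated in the labels, and these p-values therefore reflect the spread between arrays alone, which may be technical. In whole root tips, fewer cells of a type and less RNA per cell cannot be told apart.

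The values are the deposited probe-set signals on a linear scale, and ± is the SD over 3 arrays unless it follows a log2 fold change, where it is the standard error. Signals of different probe sets depend on their probes, so the genes are not ranked against each other by level. Probe sets with a mean under a signal of about 92.3 were treated as dim and left out of the test, which removed 2 of the 9 members. Medians of the whole arrays ran from 157 to 172. One array, CLE25 replicate 3, had the lowest mean Pearson correlation with the other arrays (0.981, against 0.982 to 0.985 for the others) and held the lowest of the 6 values for 24.6% of all probe sets. Fold changes that rest on this array are also given without it.

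**Figure D1:**
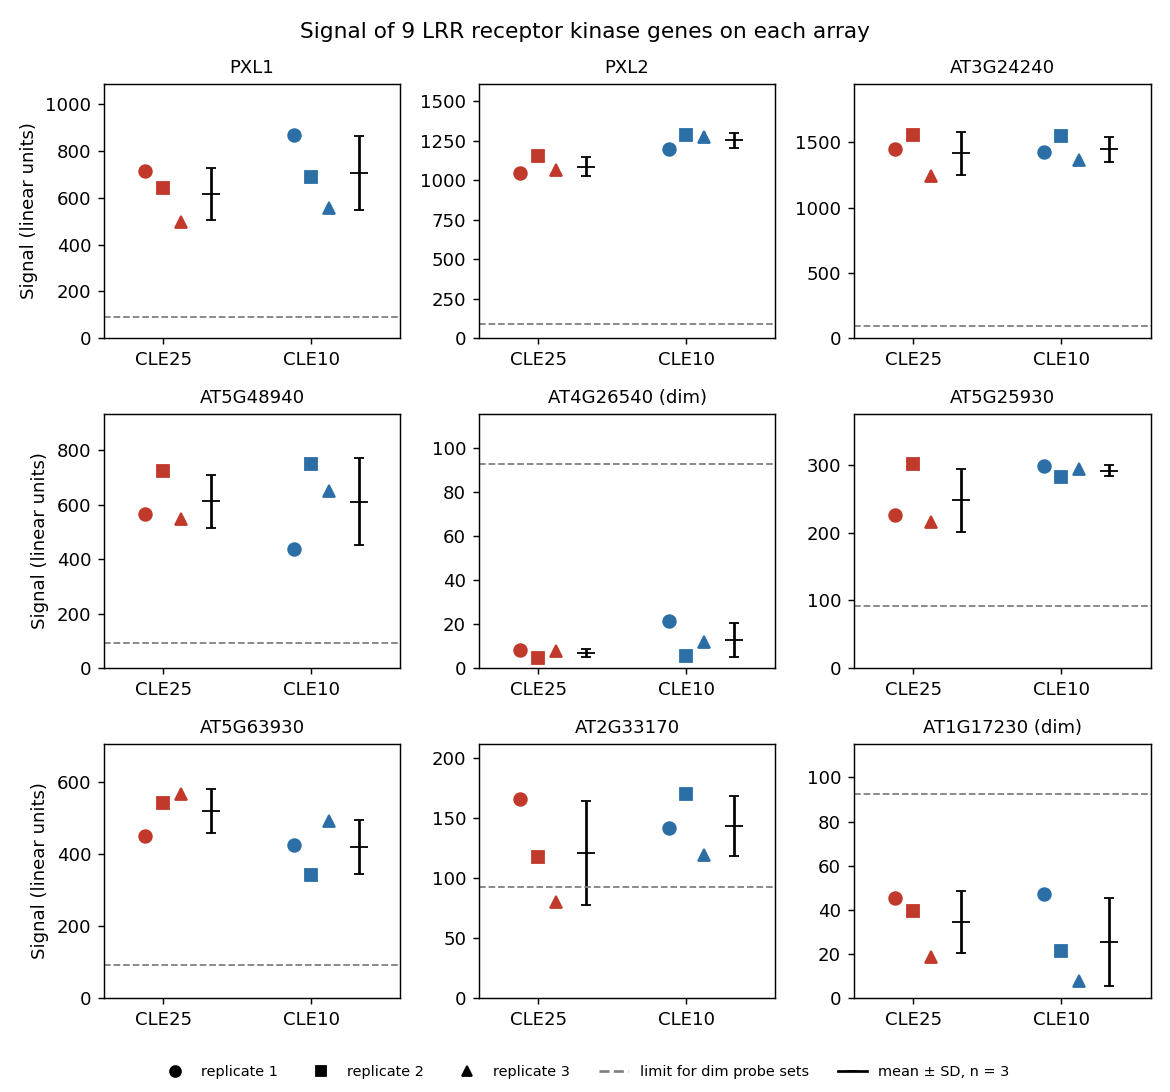
Linear signal (vertical axis) of the 9 measured receptor kinase genes on each array, CLE25 left and CLE10 right, with black bars for the mean ± SD of 3 arrays and a dashed line at the limit for dim probe sets (92.3). PXL2 is the gene whose groups lie apart, with CLE25 arrays from 1042 to 1154 and CLE10 arrays from 1199 to 1288, and AT1G17230 and AT4G26540 lie below the limit on every array.

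PXL2 had the steadiest signal of the members. It read 1042, 1154 and 1061 on the CLE25 arrays and 1199, 1288 and 1270 on the CLE10 arrays. All 3 CLE25 arrays were lower than all 3 CLE10 arrays, which among the tested members was seen for PXL2 alone. Across all probe sets tested, 9.18% had groups that do not overlap, and 4.51% had CLE25 below CLE10 in this way, so 1 of 7 members is near the background. The means were 1086 ± 59.7 with CLE25 and 1253 ± 46.9 with CLE10, a log2 fold change of -0.21 ± 0.10 (95% interval -0.42 to 0.0099), which did not pass (limma adjusted p = 0.9995). The interval runs from 0.747 to 1.01 as a CLE25 over CLE10 ratio. The within-group SD of PXL2 was 0.067 on the log2 scale, lower than in all but 4.98% of the probe sets tested.

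PXL1, the other PXY relative, varied more. It read 713, 640 and 496 on the CLE25 arrays and 870, 687 and 557 on the CLE10 arrays. The groups overlapped, with the highest value on a CLE10 array and the lowest on CLE25 replicate 3. The means were 616 ± 110 with CLE25 and 705 ± 157 with CLE10, a log2 fold change of -0.18 ± 0.17 with an interval from -0.56 to 0.19. The size of the PXL1 difference depended on single arrays: it was -0.038 without CLE25 replicate 3 and -0.022 without CLE10 replicate 1, but -0.34 without CLE10 replicate 3 and -0.30 without CLE25 replicate 1. Its sign stayed negative in each case. Between arrays of the same number, the log2 difference was -0.29, -0.10 and -0.17 for replicates 1, 2 and 3. No label says that the numbers pair the arrays. The within-group SD of PXL1, 0.29 on the log2 scale, exceeded that of 87.7% of the probe sets tested.

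Of the RGF receptor genes, AT3G24240 and AT5G48940 were well above the dim limit and had nearly the same mean signal with both peptides. AT3G24240 read 1451, 1559 and 1238 with CLE25 and 1427, 1549 and 1362 with CLE10. These groups overlapped almost fully, with means of 1416 ± 163 with CLE25 and 1446 ± 94.8 with CLE10. The log2 fold change of AT3G24240 was -0.035 ± 0.11, and its interval, -0.28 to 0.21, corresponds to CLE25 over CLE10 ratios from 0.823 to 1.16. That sign is not settled, since the value turned to 0.059 on leaving out CLE25 replicate 3 and to 0.016 on leaving out CLE10 replicate 2.

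AT5G48940 read 567, 724 and 546 on the CLE25 arrays and 436, 748 and 651 on the CLE10 arrays. The CLE10 arrays spanned the CLE25 arrays, from the lowest of the 6 values to the highest. Means were 612 ± 97.6 with CLE25 and 611 ± 159 with CLE10, and the log2 fold change was 0.026 ± 0.19 with an interval from -0.38 to 0.43. Its sign turned on leaving out CLE10 replicate 1 (-0.20) or CLE25 replicate 2 (-0.10). The third RGF receptor gene, AT4G26540, was dim on all 6 arrays, at 8.07, 4.64 and 7.81 with CLE25 and 21.1, 5.55 and 11.6 with CLE10. These values lie near the pseudocount of 6.03, so no fold change is read from them.

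AT5G25930, described as the CTNIP receptor HSL3, read 225, 300.5 and 216 with CLE25 and 298, 282 and 293 with CLE10. Both the highest and the lowest value were CLE25 arrays, while the CLE10 arrays lay close together. Means were 247 ± 46.2 with CLE25 and 291 ± 8.17 with CLE10, a log2 fold change of -0.25 ± 0.15 with an interval from -0.58 to 0.086. The value was -0.39 without CLE25 replicate 2, which was the high array, and -0.16 without CLE25 replicate 3.

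The remaining members are kinases to which no peptide is assigned here. AT5G63930 had the largest positive difference among the tested members, reading 450, 540 and 565 with CLE25 and 425, 341 and 490 with CLE10. A CLE10 array, replicate 3, lay above the lowest CLE25 array, so the groups overlapped. Means were 518 ± 60.6 with CLE25 and 418 ± 74.7 with CLE10, a log2 fold change of 0.31 ± 0.15 (interval -0.017 to 0.64; limma adjusted p = 0.9995). The upper end of that interval is a ratio of 1.56, so a difference of 1.5-fold is not outside it. The value was 0.25 without CLE25 replicate 3, its highest array, and 0.17 without CLE10 replicate 2, its lowest.

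AT2G33170 lay close to the limit for dim probe sets, at 166, 117 and 79.9 with CLE25 and 142, 170 and 120 with CLE10. CLE25 replicate 3 lay below the dim limit, and the other 5 arrays lay above it. Means were 121 ± 43.3 with CLE25 and 144 ± 25.2 with CLE10, and the log2 fold change of -0.28 ± 0.25 had the widest interval of the members tested, from -0.83 to 0.27. The value was -0.025 without CLE25 replicate 3, -0.16 without CLE10 replicate 2 and -0.53 without CLE25 replicate 1. Raising the pseudocount to the 40th percentile of all values brought it to -0.16, and with a filter at the 60th percentile the gene was not tested. AT1G17230 was dim on all 6 arrays, with 45.4, 39.3 and 18.8 with CLE25 and 47.2, 21.1 and 7.90 with CLE10, and its groups overlapped.

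**Figure D2:**
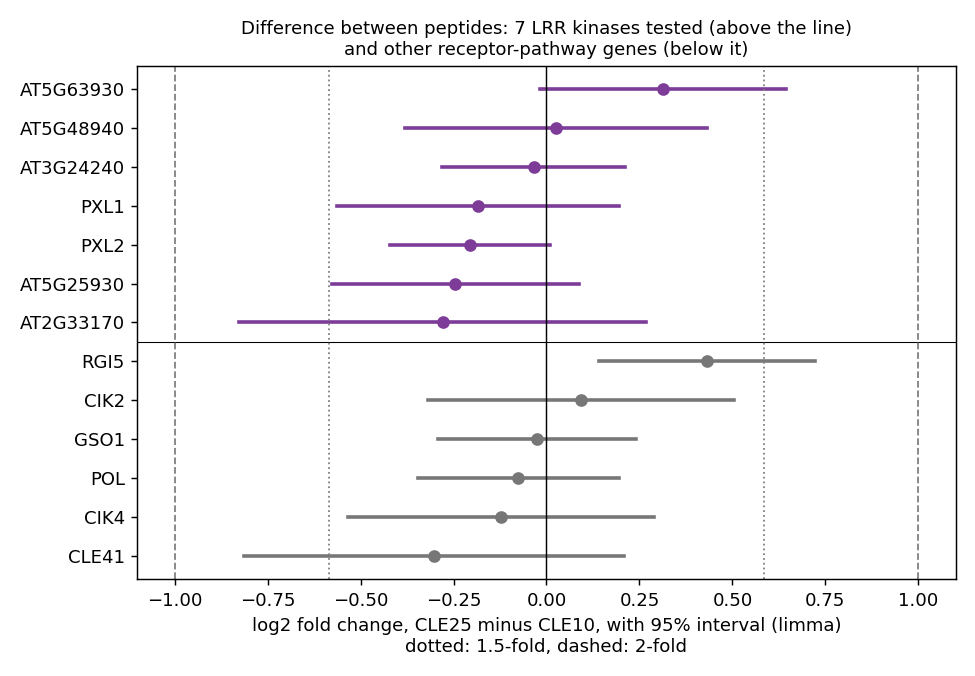
Log2 fold change, CLE25 minus CLE10, with its 95% interval (limma) for the 7 receptor kinase genes tested (above the line) and for 6 further genes of peptide perception (below it); dotted lines mark 1.5-fold and dashed lines 2-fold. All 7 kinase intervals cross 0 and lie inside 2-fold, and AT5G63930 and AT2G33170 reach past 1.5-fold.

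Taken as a group, 5 of the 7 members tested had a negative log2 fold change and 2 a positive one, where 50.6% of all probe sets were negative. The median of the 7 was -0.18, against -0.0024 for all probe sets tested, and none of these genes passed the test. The median was -0.025 without CLE25 replicate 3, so its size depends on that array. With a filter at the 60th percentile the median was -0.11. That filter leaves out AT2G33170 and kept the fold changes of the other members as they were, so this shift comes from which members are counted. On CLE25 replicate 3, 4 of the 7 members (PXL1, AT2G33170, AT3G24240 and AT5G25930) had their lowest value, and 1, AT5G63930, its highest, where 24.6% of all probe sets were lowest and 17.9% highest on this array. All tested members except AT5G63930 lay below their own mean there, and the median deviation of the 7 was -0.20 on the log2 scale, against -0.019 for all probe sets tested. On CLE10 replicate 2, 3 of 7 members had their highest value, as did 18.0% of all probe sets. There 6 of 7 members lay above their own mean, with a median deviation of 0.12, against 0.016 for all probe sets tested.

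The same CLE25 array also stood at an end of the range for some of the cell type markers, of which 8 of 22 listed entries were measured. It held the lowest value of 3 of these genes: BBM of the meristem, SWEET11 of the phloem and LHCB4.1 of green tissue. This array held the highest value of both root hair expansins, EXPA7 and EXPA18. Their summed signal ran from 3985 to 6645 with CLE25 and from 3960 to 5003 with CLE10. For JKD, IRX10 and GSO1, the lowest and the highest value lay on other arrays. Across all probe sets tested, 24.6% were lowest and 17.9% highest on CLE25 replicate 3, and the marker counts were not tested against these shares. LHCB4.1 ran from 40.2 to 129 with CLE25 and from 91.9 to 148 with CLE10, and SWEET11 from 178 to 383 with CLE25 and from 359 to 677 with CLE10. SWEET11 had a log2 fold change of -0.76 ± 0.27 (95% interval -1.35 to -0.16; limma adjusted p = 0.9995), larger than that of any member tested, and -0.43 without CLE25 replicate 3 (interval -0.90 to 0.047). LHCB4.1 had -0.49 ± 0.35, and -0.022 without that array. BBM had -0.25 ± 0.23, and -0.072 without CLE25 replicate 3. The other CLE25 arrays had 4738 and 3985 for the summed expansins, and without CLE25 replicate 3 the log2 fold changes were -0.0052 for EXPA7, against 0.24 with all arrays, and -0.052 for EXPA18, against 0.13. The summed signal of the meristem genes BBM and JKD ran from 198 to 288 with CLE25 and from 201 to 316 with CLE10. IRX10 of the xylem ran from 272 to 319 with CLE25 and from 260 to 287 with CLE10, and GSO1 of the endodermis from 533 to 648 with CLE25 and from 550 to 660 with CLE10. None of the 8 markers passed the test, the root cap markers had no probe set named for them alone, and the part of these tissues in the members' values was not tested.

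**Figure D3:**
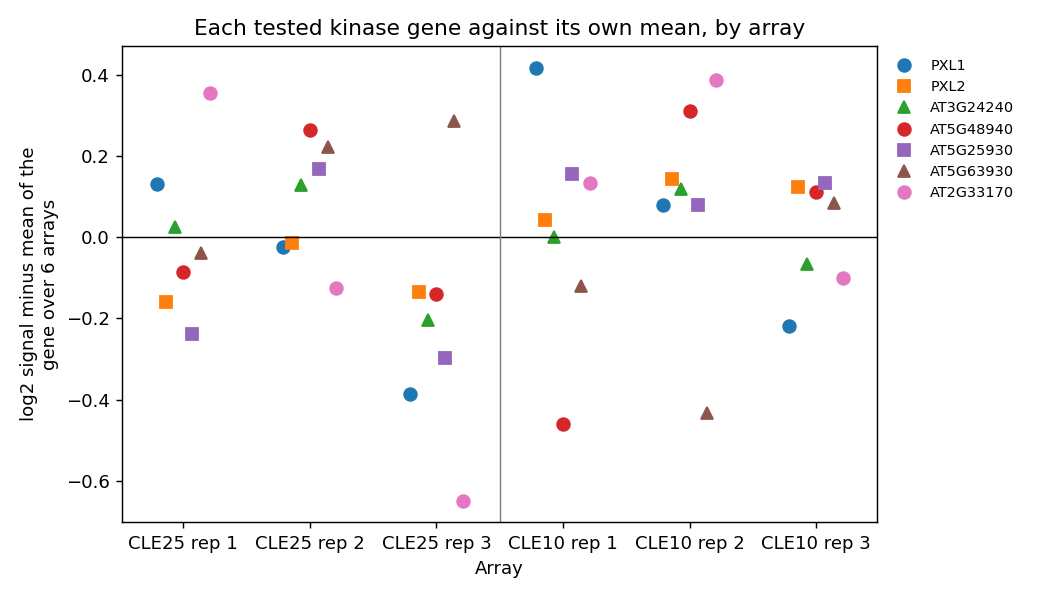
Log2 signal of each of the 7 tested receptor kinase genes minus that gene's own mean over the 6 arrays (vertical axis), by array, CLE25 arrays left of the line and CLE10 arrays right of it. On CLE25 replicate 3, 6 of the 7 genes lie below 0 and AT5G63930 lies above it.

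Few partners of these receptors could be read. Of 18 other peptide receptor genes listed, 3 had a probe set that the annotation names for them alone. Of these, 2 were tested, with 0 passing in either direction. As 8730 of 22746 probe sets carry no name, a gene without one named for it may still be on the array. AT1G34110, described as RGI5, another receptor of RGF peptides, read 351, 361 and 335 with CLE25 and 270, 226 and 279 with CLE10. All CLE25 arrays lay above all CLE10 arrays, as in 4.67% of all probe sets, and the log2 fold change was 0.43 ± 0.13 (interval 0.14 to 0.72), which did not pass (limma adjusted p = 0.9995). GSO1, a receptor kinase of the endodermal barrier, had a log2 fold change of -0.025 ± 0.12, and IKU2, a kinase of seed size, was dim.

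Of 9 listed CLE co-receptors and phosphatases, 3 were tested and 0 passed. POL, a phosphatase that acts after CLV1, had a log2 fold change of -0.076 ± 0.12. The co-receptor kinases AT2G23950 (CIK2) and AT5G45780 (CIK4) had 0.092 ± 0.19 and -0.12 ± 0.19, and the dim receptor kinase ACR4 was not tested. CLE41, which encodes the TDIF peptide bound by PXY, was the 1 gene tested of the 7 listed for that pathway. It read 134, 141 and 109 with CLE25 and 212, 172 and 108 with CLE10, with overlapping groups and a log2 fold change of -0.30 ± 0.23. CLE44, the other TDIF gene listed, was dim, and none of the 5 SERK co-receptor genes and none of the 9 RGF pathway genes had a probe set named for it alone.

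The patterns most like those of AT3G24240 and PXL2 were sought among 7443 tested one-gene probe sets, by Pearson correlation of log2 signal over the 6 arrays. These 2 members were taken because their probe sets gave the highest mean signals, which does not rank the genes by expression. AT3G24240 was most like AT4G23840 (r = 0.989), the plastid gene petB (r = 0.989) and AT1G73180 (r = 0.987). Like AT3G24240, all of these had their lowest value on CLE25 replicate 3, and whether the likeness holds without that array was not tested. PXL2 was most like AT3G54000 (r = 0.994), AT3G06310 (r = 0.993) and AT5G20060 (r = 0.985). Over these 6 arrays, a high r was not confined to the genes named. Of the 7443 probe sets, 50 had an r over 0.95 with AT3G24240 and 14 with PXL2. These correlations describe the 6 arrays, which share their scaling, and carry no test.

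**Figure D4:**
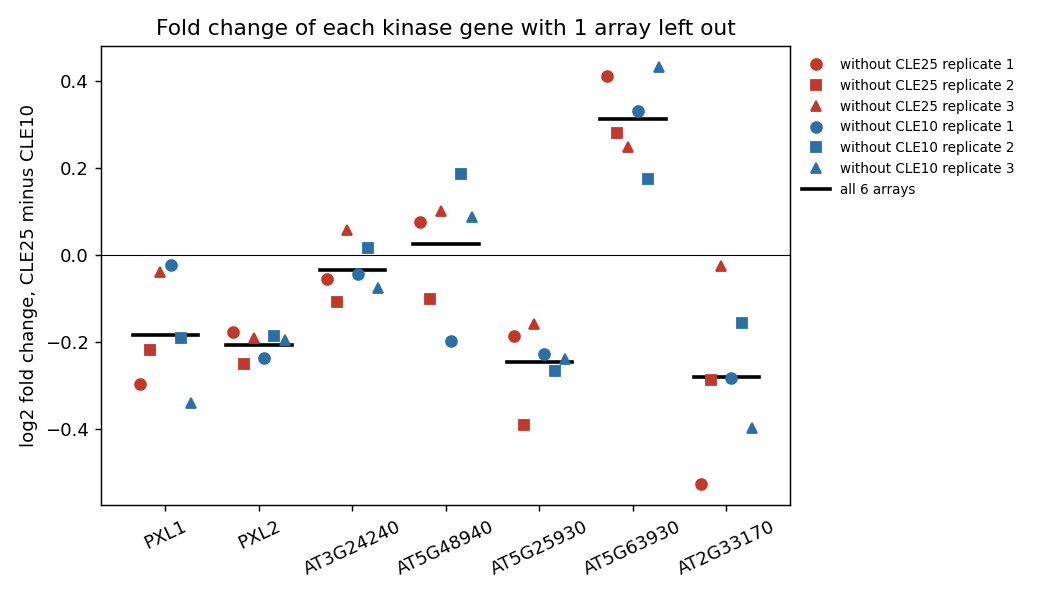
Log2 fold change, CLE25 minus CLE10, of the 7 tested receptor kinase genes with all 6 arrays (black line) and with 1 array left out (red for a CLE25 array, blue for a CLE10 array; the marker gives the replicate). PXL2 stays between -0.25 and -0.18, while AT3G24240 and AT5G48940 lie on both sides of 0.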

How the data were processed

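The deposited values are intensity values, 1 linear signal per probe set and array, from GCOS 1.4 per the submitters' processing notes, with settings not stated here. After trimming 2% at each end, the mean was 500 on every array, a global scaling that would hide a change common to all transcripts. Of 22746 probe sets (64 controls left out), 13513 name 1 gene, 503 several and 8730 none; names came from the platform annotation and the TAIR10.1 gene table, which matched 13436. Signals were analysed as log2(signal + 6.03), the 10th percentile of all values, so fold changes of dim genes are understated. Probe sets with a mean log2 value of at least 6.62 (40th percentile) were kept, 13648 in all. CLE25 and CLE10 were compared with limma 3.58.1 in R 4.3.3 (lmFit, eBayes with trend, no replicate block), with Benjamini-Hochberg adjustment over all 13648. The fit was tested on simulated data. The number of arrays limits the precision. Members and gene lists were chosen with earlier results of these data known. Named genes are all measured members, genes of the lists, and for the 2 members of highest mean signal the 3 most correlated genes. The alternatives were another pseudocount, filter, normalization or variance model, array weights, a replicate block and leaving out each array.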

Additional observations from a re-analysis of the deposited data

How the results depend on the processing

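No receptor kinase gene was called under any of the 13 alternatives, including each array left out (0 to 0). The number of all probe sets called was 0 throughout, with 1 exception: it was 1 with a replicate block, which is none of the members, and 0 to 0 on leaving out an array. The block left the members' fold changes as they were and gave PXL1 a standard error of 0.11 in place of 0.17 (limma adjusted p = 0.854). Arrays with the same number had deviations that correlated at 0.076, 0.136 and 0.221, and for each array the highest value was with the same number, which is a hint from the data only; no label explains the numbers, and the arrays were not treated as pairs. The median of the members tested ran from -0.22 to -0.025 on leaving out an array, with -0.025 without CLE25 replicate 3, and was -0.11 with the filter at the 60th percentile, which tests fewer genes. The marker values without CLE25 replicate 3 were chosen after seeing the data. Of 90 recomputed member values, 4 changed sign, all on leaving out an array: AT3G24240 (0.059 and 0.016, over a range from -0.11 to 0.059) and AT5G48940 (-0.10 and -0.20, over a range from -0.20 to 0.19). The cause was not tested. The other 5 members kept their sign. Dim signals limit AT1G17230 and AT4G26540, which did not pass with no filter either (limma adjusted p = 0.99998).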
